A study of Arabidopsis thaliana with 24 samples.

Results

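Cysteine-rich receptor-like kinases (CRKs) were measured in rosette leaves of Tsu-1 and Kas-1, which are 2 natural accessions of Arabidopsis thaliana, after mild soil drying and in wet soil. The members were 39 named CRK loci, taken from the table by locus identifier. Of these, 30 were among the 20514 loci of the table, and CRK6, CRK8, CRK15, CRK20, CRK32, CRK34, CRK37, CRK39 and CRK40 were not analysed here.

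CRKs are membrane proteins with extracellular domains rich in cysteine (DUF26 domains), a membrane span and a cytoplasmic serine/threonine kinase. The family is large, and many of its genes stand side by side on chromosome 4. In Arabidopsis, many CRK genes are induced by pathogens, salicylic acid and reactive oxygen, and several family members act in pattern-triggered immunity, in cell death and in the control of apoplastic reactive oxygen.

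The 4 groups were Tsu-1 dry, Tsu-1 wet, Kas-1 dry and Kas-1 wet, with 6 arrays each. Stocks CS1640 (Tsu-1) and CS903 (Kas-1) were both inbred natural accessions without a transgene or a mutant allele in the labels, and no plant age is given there. Dry pots were lowered over 5 days until about 50% of their water remained, and wet pots were kept near 90%. The design text names 3 biological replicates per combination, while 6 arrays were analysed for each, so the errors below are between arrays and may be partly technical.

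Expression is given as the log2 values that the authors deposited, in which 1 unit is a 2-fold difference in signal. Array medians lay between 6.77 and 6.87. Arrays of 1 group correlated over the tested loci at 0.945 to 0.985 in Tsu-1 dry, 0.872 to 0.983 in Tsu-1 wet, 0.907 to 0.995 in Kas-1 dry and 0.958 to 0.985 in Kas-1 wet. Tsu-1 wet 7 and 9 and Kas-1 dry 1 and 2 had array weights under 0.5 and stood apart. The 3 leaf markers measured (LHCA1, RCA and PSBO1) had group means between 13.07 and 13.57, whereas 0 of 4 root and 0 of 4 flower markers passed the intensity filter. The highest root marker mean was still 6.14 to 6.22 in the 4 groups, above the level named next. The lower quartile of all values in the table, 5.19, is used below as a level near which signal cannot be told from background.

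By that measure, 9 of the 30 CRKs lay below 5.19 in all 24 arrays. They were CRK1, CRK13, CRK25, CRK26, CRK30, CRK31, CRK33, CRK36 and CRK38. Another 12 lay above that level in every array, and the other 9 crossed it in some arrays. CRK14, CRK21, CRK22 and CRK29 belong to the last set, and each was above that level in one accession and at or below it in nearly all arrays of the other. A filter on the mean over all arrays (6.19, the 40th percentile) kept 12308 loci and 9 CRKs, and it removed all 4 of those genes. CRK counts are therefore given for that filter and, in addition, for a fit of all 20514 loci that holds all 30 measured members.

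The first comparison asked how the accessions differ. With both soils averaged, 10 of 30 CRKs differed in the fit of all loci, 6 higher and 4 lower in Tsu-1. The background was 35% of all loci, 17.2% higher and 17.8% lower, and the share of CRKs called (33.3%) was near it. Differences of at least 2-fold were found for 7 of 30 CRKs, against 2.04% of all loci. CRK4, CRK14, CRK21 and CRK22 were higher in Tsu-1 by more than that amount, and CRK5, CRK28 and CRK29 were lower. For these same 7 genes the 12 Tsu-1 arrays and the 12 Kas-1 arrays did not overlap, which held for 3.12% of all loci. Among the 9 CRKs above the filter, 1 was higher (CRK4) and 2 were lower (CRK5 and CRK28) in Tsu-1, where 47.7% of tested loci were called, 23.3% higher and 24.5% lower. A lower transcript level, less RNA from the cells that express a gene, and weaker binding of one accession's transcripts to the probes cannot be told apart in these values.

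**Figure D1:**
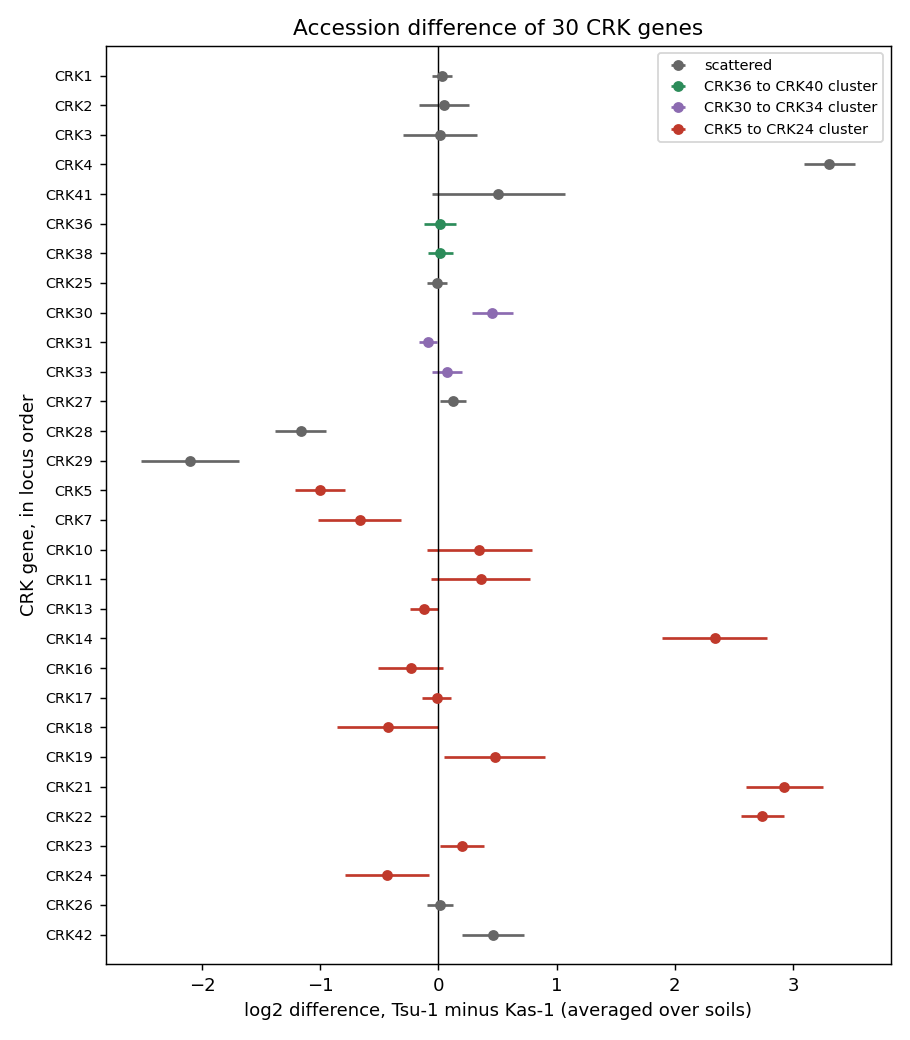
Log2 difference of Tsu-1 from Kas-1, as the mean of both soils (horizontal axis), for the 30 measured CRK genes in locus order (vertical axis), with 95% confidence intervals from the fit of all loci and colours for the 3 tandem clusters and the scattered genes. CRK4, CRK14, CRK21 and CRK22 stand to the right beyond 2, CRK29 stands to the left beyond -2, and most other genes lie within 0.5 of 0.

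CRK21 (AT4G23290) and CRK22 (AT4G23300) are direct neighbours in the largest tandem cluster, which runs from CRK5 to CRK24, with 0 protein-coding loci between them in the RefSeq order. In Tsu-1, CRK21 had a lowest, median and highest value of 5.93, 6.78 and 7.41 in dry soil and 6.27, 6.48 and 7.45 in wet soil, against 3.39, 3.90 and 4.27 in dry and 3.53, 3.57 and 3.94 in wet Kas-1. All 12 Tsu-1 arrays were above 5.19 and all 12 Kas-1 arrays were below it. The difference averaged over soils was 2.93 (SE 0.16, limma adjusted p = 7.66e-13 over all loci). CRK22 had 6.43, 6.85 and 7.35 in dry and 6.68, 6.87 and 7.28 in wet Tsu-1, against 4.05, 4.14 and 4.29 in dry and 3.87, 4.12 and 4.36 in wet Kas-1. Its difference was 2.74 (SE 0.09, limma adjusted p = 1.6e-17), with the same split of arrays around the background level. CRK23, next in the row, was not called, with a difference of 0.20 (SE 0.09, limma adjusted p = 0.0898).

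CRK14 (AT4G23220) lies in the same cluster, between CRK13 and CRK15. It had a lowest, median and highest value of 6.57, 6.86 and 7.46 in dry and 5.64, 7.38 and 8.20 in wet Tsu-1, against 4.41, 4.59 and 5.26 in dry and 4.12, 4.72 and 4.93 in wet Kas-1. The lowest Tsu-1 array, wet 8 at 5.64, was still above the highest Kas-1 array, dry 2 at 5.26. The difference was 2.34 (SE 0.21, limma adjusted p = 1.02e-08). The Kas-1 values of CRK14, CRK21 and CRK22 were below 5.19 in all arrays but 1, so these differences set no exact transcript fold.

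CRK5 (AT4G23130), the first gene of the cluster, was lower in Tsu-1. Its overexpression is known to cause cell death resembling the hypersensitive response. It had 7.93, 8.33 and 8.60 in dry and 7.62, 8.35 and 8.59 in wet Tsu-1, against 9.06, 9.17 and 9.74 in dry and 9.20, 9.24 and 9.44 in wet Kas-1. Signal was above background in every array, and it was 2.00-fold lower in Tsu-1 (log2 difference -1.0, SE 0.10, limma adjusted p = 7.16e-08). CRK7, in the same cluster, was also lower in Tsu-1 (-0.67, SE 0.17, limma adjusted p = 0.00356 over all loci), but 22 of its 24 values were below 5.19. The arrays of CRK7 overlapped between the accessions in dry soil. In wet soil its call was lost without Kas-1 wet 8 (adjusted p = 0.0755), where its difference was -0.55 against -0.76.

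The other 9 measured members of this cluster were not called. CRK10 (0.35), CRK11 (0.36), CRK19 (0.48) and CRK23 (0.20) had positive differences, and CRK13 (-0.12), CRK16 (-0.23), CRK17 (-0.01), CRK18 (-0.43) and CRK24 (-0.44) negative ones. Overexpression of CRK19, like that of CRK5, is known to cause cell death. CRK19 came closest among the genes above the filter, with a limma adjusted p of 0.0645 there. It was called with a positive difference with array weights (0.64, limma adjusted p = 0.00182, AT4G23270) and when any of Tsu-1 dry 5, Tsu-1 wet 8, Tsu-1 wet 10, Kas-1 dry 2 or Kas-1 wet 8 was left out.

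**Figure D2:**
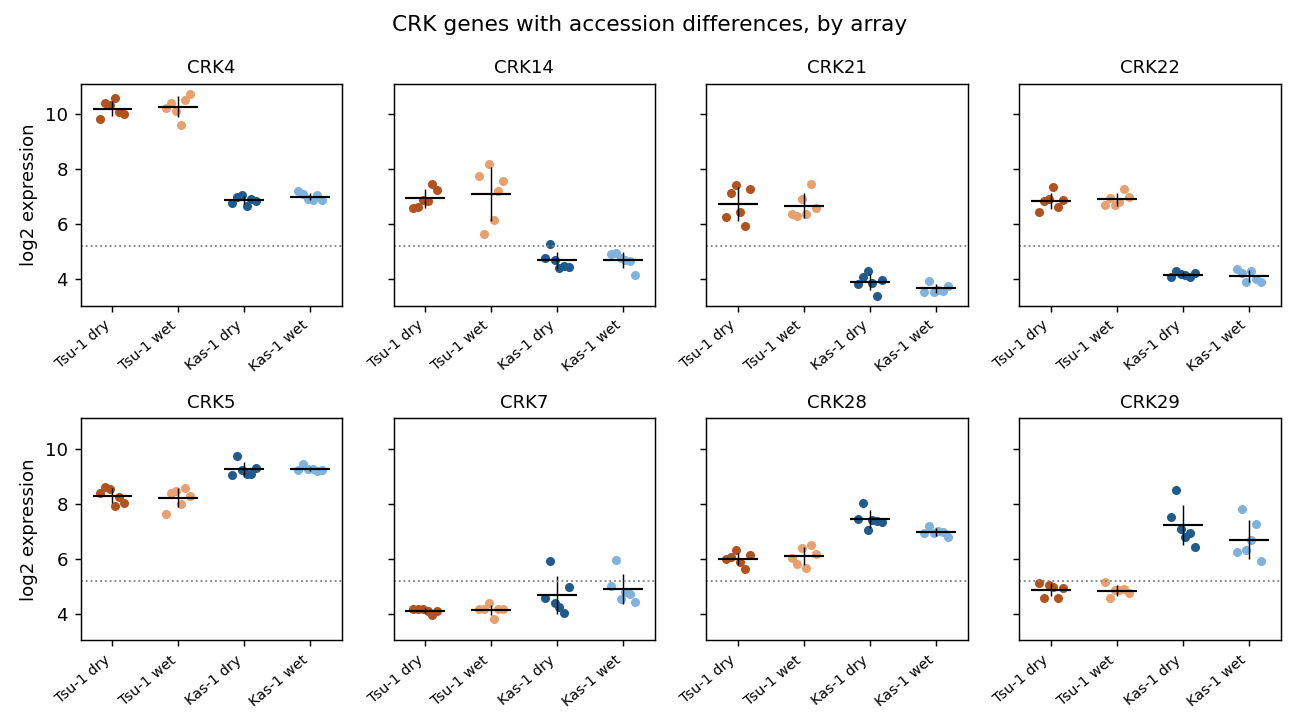
Log2 expression (vertical axis) of 8 CRK genes in each of the 24 arrays, by group (horizontal axis), with the mean as a bar, the SD as a vertical line, 6 arrays per group, and the lower quartile of all values (5.19) dotted. CRK14, CRK21 and CRK22 are above the dotted line in Tsu-1 and at or near background in Kas-1, CRK29 shows the opposite split, and CRK4, CRK5 and CRK28 separate the accessions above it.

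CRK28 (AT4G21400) and CRK29 (AT4G21410) are direct neighbours elsewhere on chromosome 4, again with 0 protein-coding loci between them. CRK28 is known to associate with the immune co-receptor BAK1. CRK28 had a lowest, median and highest value of 5.63, 6.01 and 6.31 in dry and 5.65, 6.11 and 6.51 in wet Tsu-1, against 7.05, 7.39 and 8.03 in dry and 6.78, 6.95 and 7.20 in wet Kas-1. It was 2.24-fold lower in Tsu-1 (-1.16, SE 0.11, limma adjusted p = 7.12e-09), and no Tsu-1 array reached the lowest Kas-1 array. The Tsu-1 means of CRK28, 5.99 in dry and 6.09 in wet soil, were below the highest root marker mean there (6.22 in each). Its fold may therefore not be exact. CRK29 had 4.58, 4.95 and 5.13 in dry and 4.56, 4.85 and 5.14 in wet Tsu-1, against 6.43, 7.02 and 8.51 in dry and 5.92, 6.49 and 7.80 in wet Kas-1. All 12 Tsu-1 values were below 5.19, and the difference was -2.10 (SE 0.20, limma adjusted p = 1.81e-08 over all loci). As Tsu-1 signal was near background, this difference sets no exact transcript fold. The highest Kas-1 values were those of dry 2 (8.51) and wet 8 (7.80), and without Kas-1 dry 2 the difference was -1.97.

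CRK4 (AT3G45860), on chromosome 3, is another gene whose overexpression is known to cause cell death. It had 9.83, 10.20 and 10.59 in dry and 9.61, 10.33 and 10.75 in wet Tsu-1, against 6.66, 6.87 and 7.07 in dry and 6.86, 6.97 and 7.22 in wet Kas-1. It was well above background in both accessions and was 9.90-fold higher in Tsu-1 (log2 difference 3.31, SE 0.10, limma adjusted p = 2.6e-17). Without any 1 of the 24 arrays the difference stayed between 3.26 and 3.37.

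Of the other 8 scattered genes 1 was called. CRK42 was higher in Tsu-1 by 0.46 (SE 0.13, limma adjusted p = 0.00614 over all loci), and its arrays overlapped. CRK2, which phosphorylates the NADPH oxidase RBOHD in Arabidopsis immunity, differed by 0.05 (SE 0.10, limma adjusted p = 0.715). Its neighbour CRK3 differed by 0.01 (SE 0.15). CRK41 differed by 0.51 with an SE of 0.27, and its limma adjusted p was 0.131. Without Tsu-1 wet 8, CRK41 (AT4G00970) was called at 0.63 (adjusted p = 0.0481) and CRK10 (AT4G23180) at 0.50 (adjusted p = 0.0184). CRK27 (0.12), CRK1 (0.03), CRK26 (0.02) and CRK25 (-0.01) were not called either.

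In the 2 smaller clusters on chromosome 4, CRK30 was higher in Tsu-1 by 0.46 (SE 0.08, limma adjusted p = 0.000165 over all loci). All its values were below 5.19, so the difference lies within the range of background. CRK31 (-0.09), CRK33 (0.07), CRK36 (0.01) and CRK38 (0.02) were not called. CRK36 is known in Arabidopsis as a negative regulator of abscisic acid responses.

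Without the 4 arrays of low weight, the difference averaged over soils was 3.33 for CRK4 (AT3G45860), -1.12 for CRK28 (AT4G21400) and -0.92 for CRK5 (AT4G23130), each still called by limma above the filter. CRK19 (AT4G23270) was then called too (0.52, limma adjusted p = 0.0145), and in wet soil CRK18 (AT4G23260) was lower in Tsu-1 (-0.69, limma adjusted p = 0.0089). In the fit of all loci it was 2.95 for CRK21 (AT4G23290), 2.80 for CRK22 (AT4G23300), 2.20 for CRK14 (AT4G23220) and -1.94 for CRK29 (AT4G21410), so that of the 7 genes CRK5 alone came under 2-fold, and CRK19, CRK23 and CRK24 were called in addition to the 10.

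Called genes were found in the tandem clusters and among the scattered genes. Of 28 clustered genes 19 were measured, and 4 were higher and 2 lower in Tsu-1 in the fit of all loci. Of 11 scattered genes all 11 were measured, and 2 were higher and 2 lower. At least 2-fold differences were found for 4 of 19 clustered and 3 of 11 scattered genes. Of those 3 scattered genes, CRK28 and CRK29 are direct neighbours, counted as scattered because a cluster here needs at least 3 members. Over all 20514 loci, 35% were called and 2.04% were called with at least 2-fold. The median absolute log2 difference was 0.36 in the clusters, 0.12 among the scattered genes and 0.12 over all 20514 loci. The cluster of CRK5 to CRK24 alone had a median of 0.43 over 14 genes, and the 2 smaller clusters had 0.09 over 3 genes and 0.02 over 2. Whether the clusters differ from the scattered genes was not tested.

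Other loci beside the clusters were compared in the same fit. That fit called 35% of all loci. Of the 20 protein-coding loci nearest to the cluster of CRK5 to CRK24, 10 on each side, 10 were measured, 3 were called, and 0 were called with a difference of at least 2-fold. Their differences ran from -0.02 to 0.70. Inside that cluster 1 locus that is not among the listed members was measured, and it was called at -0.58. Whether that locus is a CRK outside the list was not tested. Beside CRK28 and CRK29, 16 of the 20 nearest protein-coding loci were measured, 4 were called, 0 were called at 2-fold, and differences ran from -0.44 to 0.54. Beside CRK30 to CRK34, 10 were measured, 5 were called, 1 was called at 2-fold, and differences ran from -0.23 to 1.73. Beside CRK36 to CRK40, 10 were measured, 4 were called, 0 were called at 2-fold, and differences ran from -0.07 to 0.67.

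In each soil taken alone, the arrays of the accessions did not overlap for 8 of 30 CRKs, against 8.69% of all loci in dry and 9.23% in wet soil. These were the 7 genes above with CRK30 in dry soil and CRK7 in wet soil. In dry soil, 8 of 30 CRKs were called in the fit of all loci (5 higher and 3 lower in Tsu-1, background 20.2%, 10.9% higher and 9.26% lower), and in wet soil 9 of 30 were called (5 higher and 4 lower, background 20.7%, 9.53% higher and 11.2% lower). Above the filter, CRK4, CRK5 and CRK28 were the 3 called in each soil, against a background of 30.5% in dry soil (16.8% higher and 13.8% lower) and 30.1% in wet soil (13.2% higher and 16.9% lower). CRK4 differed by 3.33 in dry and 3.28 in wet soil, CRK21 by 2.84 and 3.01, CRK22 by 2.69 and 2.80, and CRK14 by 2.26 and 2.41. CRK29 differed by -2.34 in dry and -1.86 in wet soil, CRK28 by -1.45 and -0.88, and CRK5 by -0.96 and -1.04. CRK30 was called in both soils, and CRK7 in wet soil (adjusted p = 0.0268) and not in dry soil (adjusted p = 0.0984, limma).

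The second comparison, dry against wet soil, asked how the genes change on drying. No CRK was called in the limma fits averaged over the accessions, within Tsu-1 or within Kas-1. This held for the 9 genes above the filter, where the background was 0.13%, 0.00812% and 0.0731% of loci, and for all 30 genes, where it was 0.0487%, 0.00975% and 0.00487%. Of the 30, 0 had an unadjusted p under 0.05 averaged over accessions, 0 in Tsu-1 and 2 in Kas-1. Their median log2 change was 0.01 averaged over accessions, against -0.01 over all loci.

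**Figure D3:**
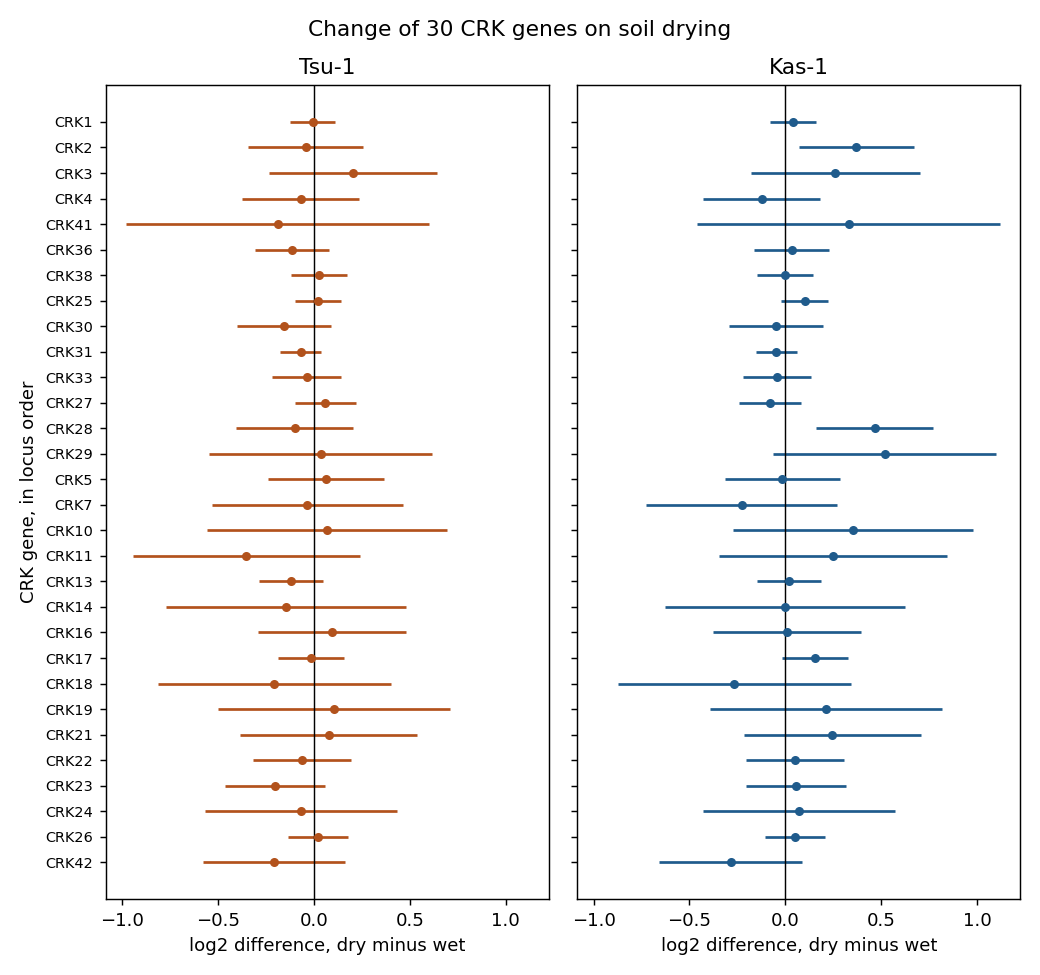
Log2 difference, dry minus wet (horizontal axis), of the 30 measured CRK genes in locus order (vertical axis), in Tsu-1 (left) and Kas-1 (right), with 95% confidence intervals from the fit of all loci. Changes lie between -0.35 and 0.20 in Tsu-1 and between -0.29 and 0.52 in Kas-1, and every interval except those of CRK2 and CRK28 in Kas-1 includes 0.

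CRK28 and CRK2 were the 2 genes with a small unadjusted p in Kas-1. CRK28 averaged 7.44 ± 0.32 in dry and 6.97 ± 0.14 in wet Kas-1 (SD, n = 6 arrays each). The change was 0.47 (SE 0.15, limma adjusted p = 0.242), and without Kas-1 dry 2 it was 0.35. In Tsu-1, CRK28 averaged 5.99 ± 0.23 in dry and 6.09 ± 0.33 in wet soil, a change of -0.10 (SE 0.15, limma adjusted p = 1.0). CRK2 averaged 8.50 ± 0.17 in dry and 8.13 ± 0.24 in wet Kas-1 (change 0.37, SE 0.15, limma adjusted p = 0.338). In Tsu-1 it averaged 8.34 ± 0.17 in dry and 8.38 ± 0.39 in wet soil, a change of -0.04. CRK3, the gene next to CRK2, had changes of 0.20 (SE 0.21) in Tsu-1 and 0.26 (SE 0.21) in Kas-1, neither called.

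The change on drying of the other 6 genes with at least 2-fold accession differences is given with its interval from the fit of all loci. For CRK4 the change was -0.07 in Tsu-1 (95% confidence interval -0.37 to 0.23) and -0.12 in Kas-1 (-0.43 to 0.18). For CRK22 it was -0.06 in Tsu-1 (-0.32 to 0.19) and 0.05 in Kas-1 (-0.20 to 0.31). For CRK5 it was 0.06 in Tsu-1 (-0.24 to 0.36) and -0.01 in Kas-1 (-0.32 to 0.29). CRK14, which varied more between arrays, had -0.15 in Tsu-1 (-0.77 to 0.48) and 0.00 in Kas-1 (-0.63 to 0.62). For CRK21 it was 0.08 in Tsu-1 (-0.39 to 0.54) and 0.25 in Kas-1 (-0.22 to 0.71). CRK29 averaged 7.21 ± 0.73 in dry and 6.70 ± 0.71 in wet Kas-1 (SD, n = 6 arrays each), and its change of 0.52 (-0.06 to 1.10, limma adjusted p = 0.613) was the largest in Kas-1 among the 30 CRKs and was not called. In Tsu-1 the change of CRK29 was 0.04 (-0.55 to 0.62).

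CRK18 (AT4G23260) was the 1 gene that some settings called on drying. It averaged 6.45 ± 0.89 in dry and 6.72 ± 0.30 in wet Kas-1, and its change of -0.27 was not called in the fit above the filter. Kas-1 dry 2, at 8.01, lay above all 6 wet Kas-1 arrays, and dry 1 reached 7.05. With array weights the change was -0.65 (limma adjusted p = 0.0407), and without the 4 arrays of low weight, which include those 2, it was -0.80 (adjusted p = 0.0427). On drying in Kas-1 those settings called 1003 and 118 of all 12308 tested loci, against 9 in the main fit.

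A further contrast set the drying change of Tsu-1 against that of Kas-1. No CRK was called by limma, above the filter or among all 30, with a background of 0%. 1 of 30 had an unadjusted p under 0.05. That gene was CRK28, whose change was lower in Tsu-1 than in Kas-1 by 0.57 (difference -0.57, SE 0.21, limma adjusted p = 0.66). CRK2 (-0.41, SE 0.21) and CRK41 (-0.52, SE 0.55) came next among the tested genes. The difference was positive for 9 of 30 CRKs, against 10634 of 20514 loci, and its median was -0.11, against 0.01 over all loci. Many CRKs shifted together in single arrays, as described below, so their signs are not independent.

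Some arrays were high or low within their group for many CRK genes at once. Kas-1 dry 2 had the highest value of its group for 18 of 30 genes, and on average it lay 0.46 above the group mean. Kas-1 wet 8 was the highest for 14 genes (mean deviation 0.26), and Kas-1 wet 12 was the lowest for 16 (-0.21). Among Tsu-1 wet arrays, number 9 was the highest for 10 genes (0.24), while numbers 10 and 8 were the lowest for 11 and 10 genes (-0.33 and -0.27). Tsu-1 dry 5 was the lowest for 14 genes (-0.17). Genes of salicylic acid synthesis, signalling and output were compared in the same arrays. The mean of the 13 measured genes deviated from the group mean by 0.98 in Kas-1 dry 2, 0.59 in Kas-1 wet 8 and 0.53 in Tsu-1 wet 9. It deviated by -0.54 in Kas-1 wet 12, -0.27 in Tsu-1 wet 10 and -0.38 in Tsu-1 wet 8. In the other arrays, both sets deviated in the same direction in some and in opposite directions in others. In Tsu-1 dry 5 both were below the group mean, with -0.06 for the salicylic acid genes. The salicylic acid genes deviated by -0.29 in Kas-1 dry 1 and 0.24 in Kas-1 dry 6, where the CRKs deviated by 0.02 and -0.08. Their part in the CRK values was not tested.

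**Figure D4:**
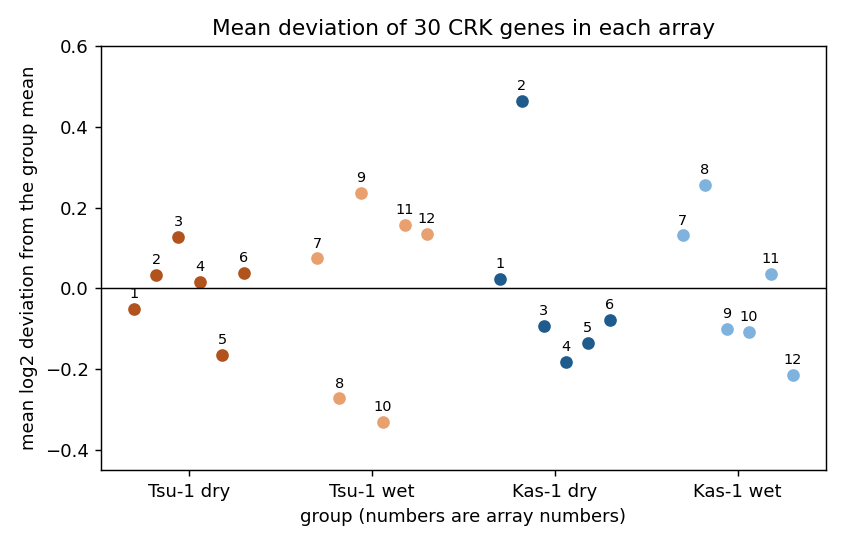
Mean deviation of the 30 CRK genes from their group mean, in log2 units (vertical axis), for each array, labelled by its number, in the 4 groups (horizontal axis). Kas-1 dry 2 is the highest at 0.46, Tsu-1 wet 10 the lowest at -0.33, and the Tsu-1 dry arrays lie within 0.17 of 0.

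The spread between arrays of a group differed from gene to gene. CRK10, in the large cluster, had 11.36 to 11.79 in dry and 9.96 to 12.42 in wet Tsu-1, and 10.93 to 11.89 in dry and 10.56 to 11.53 in wet Kas-1. Tsu-1 wet 8 (9.96) and 10 (10.68) were lower than every other Tsu-1 array. CRK19 had 8.43 to 9.27 in dry and 7.91 to 9.47 in wet Tsu-1, and 7.78 to 9.71 in dry and 7.84 to 8.92 in wet Kas-1. Its lowest Tsu-1 arrays were again wet 10 and 8, and its highest Kas-1 array was dry 2. Of the scattered genes, CRK41 spread most, from 5.46 to 8.12 in wet Tsu-1, with wet 9 at the top. Pooled over the groups, the SD was 0.57 for CRK10, 0.55 for CRK19, 0.55 for CRK18 and 0.72 for CRK41, against 0.26 each for CRK2, CRK4 and CRK5.

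**Figure D5:**
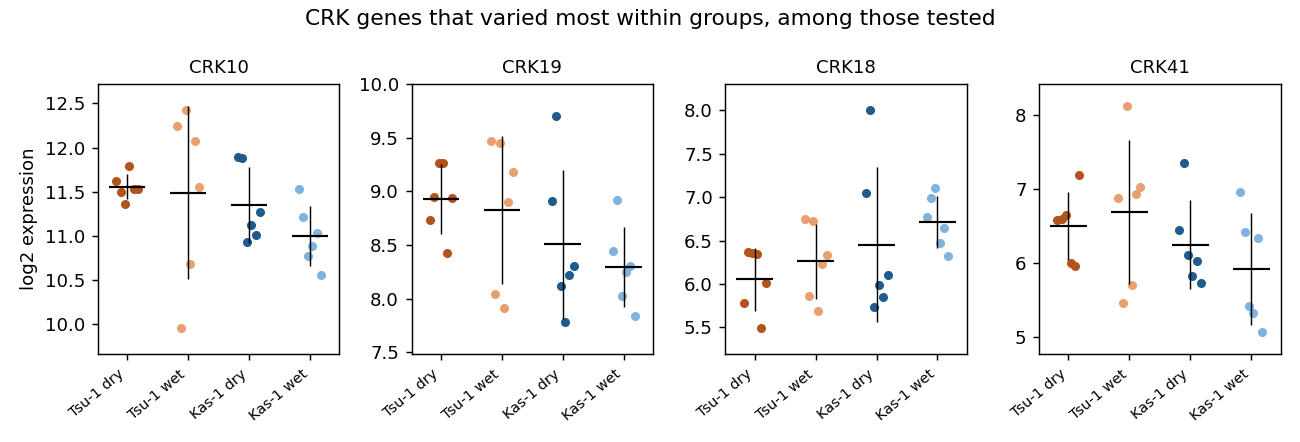
Log2 expression (vertical axis, a separate scale in each panel) of CRK10, CRK19, CRK18 and CRK41 in each array, by group (horizontal axis), with means as bars, SDs as vertical lines and 6 arrays per group. The Tsu-1 wet arrays spread from 9.96 to 12.42 for CRK10 and from 5.46 to 8.12 for CRK41, and 1 Kas-1 dry array reaches 8.01 for CRK18.

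Other genes of CRK signalling were tested in the same fit. Of 20 listed receptors, kinases and oxidases of the immune pathway, 19 were tested, and 3 were higher and 3 lower in Tsu-1 averaged over soils, a smaller share than the 47.7% of all tested loci that were called. The median was 0.08, against 0.00 over the tested loci. RBOHF, an NADPH oxidase of the oxidative burst, was higher by 0.77 (SE 0.08), as were PBL1, a receptor-like cytoplasmic kinase (0.54), and the MAP kinase kinase MKK5 (0.52). MPK4, a MAP kinase, was lower by 0.56 (difference -0.56, SE 0.08). BAK1 (0.16), BIK1 (0.28) and RBOHD (0.08), known partners of single CRKs, were not called (limma adjusted p = 0.173, 0.0945 and 0.82). On drying 0 of the 19 were called, and the smallest p averaged over accessions was that of EFR, the receptor for bacterial elongation factor (0.16, limma adjusted p = 0.536).

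PDLPs carry DUF26 domains like CRKs but lack the kinase. Of 8 PDLP genes 4 were tested, and PDLP1 (0.30, SE 0.07) and PDLP8 (0.24, SE 0.05) were higher in Tsu-1 (limma adjusted p = 0.0017 and 0.00106), against 47.7% of all tested loci called and 23.3% called higher. In the fit of all loci, which holds all 8, 3 were higher and 1 was lower, against 35% of all loci called. The lower gene was PDLP2 (-0.34, SE 0.09, limma adjusted p = 0.00449). On drying 0 of 4 were called, and PDLP5 had the smallest p averaged over accessions (0.11, limma adjusted p = 0.665).

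Salicylic acid genes were tested beside the CRKs because that hormone is known to induce many of them. Of 13 genes 11 were tested, 2 higher and 6 lower in Tsu-1, with a median of -0.27, against 23.3% of all tested loci called higher and 24.5% called lower. PR2, a glucanase (-3.08, SE 0.23), PR1 (-2.67, SE 0.37) and PR5 (-1.62, SE 0.25), defence output genes, and WRKY70, a transcription factor of that pathway (-1.24, SE 0.16), were lower. CBP60g, a transcription factor that promotes salicylic acid synthesis (1.0, SE 0.21, limma adjusted p = 0.000436), and WRKY18, a transcription factor of defence (0.92, SE 0.30, limma adjusted p = 0.0135), were higher. In dry soil alone, 0 of the 11 were called higher and 5 lower, against 16.8% and 13.8% of all tested loci. In wet soil alone, 3 were called higher and 4 lower, against 13.2% and 16.9%. The part of salicylic acid in the CRK differences was not tested. On drying 0 of 11 were called, and PR5 had the smallest p averaged over accessions (-0.69, limma adjusted p = 0.332).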

How the data were processed

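The authors deposited log2 expression values, 1 per locus and array. The unit was read from the values (3.12 to 14.2). The submitters' processing notes name MAS5 alone, without version or role, so background correction, probe summary, normalisation and the treatment of probes shared by similar genes are not given in the sources used here. Loci were matched to the RefSeq table of TAIR10.1 for names and gene order, with 20290 of 20514 matched, and all 39 members among those matched. No coordinates are given, because the array annotation's build is not given in the sources used here.

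limma 3.58.1 (R 4.3.3) estimated 4 group means for each locus whose mean passed the 40th percentile, using its trend option for the spread, and loci were called at a Benjamini-Hochberg adjusted p under 0.05 over all tested loci of each of 7 comparisons. The same fit without the filter gives the values of members below it and is named in the text as the fit of all loci. Adjusted p-values are from limma and two-sided. The procedure was tested on simulated data.

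The members and lists were chosen with earlier results of these data known. Named in the accession comparisons were members called with a difference of at least 0.5, and on drying the 3 tested members with the smallest p. Members below the filter were named after their values were seen. From other lists the rule was to name at most 4 called genes, or the 1 with the smallest p. Named in addition to that rule were CBP60g and WRKY18, which were called, and BAK1, BIK1 and RBOHD, which were not. A tandem cluster is a run of at least 3 members on chromosome 4 whose neighbouring locus numbers differ by at most 100. Arrays sharing a number in Tsu-1 and Kas-1 were not paired: deviations of same-numbered arrays correlated between -0.40 and 0.55, above 0.1 in 4 of 12 pairs. The number of arrays limits the precision. Other settings were quantile normalisation, median centring, other filters, no trend, array weights, arrays left out or averaged, and a replicate block.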

Additional observations from a re-analysis of the deposited data

Results flagged for a closer look

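Dixon's criterion for 1 array far from the other 5 of its group was applied to 14 CRK genes in 4 groups, 56 sets in all, where chance flags about 1 in 20, and it picked out 5. CRK5 was at 9.74 in Kas-1 dry 2, against 9.06 to 9.30 in the other Kas-1 dry arrays, and at 9.44 in Kas-1 wet 8, against 9.20 to 9.26 in the other Kas-1 wet arrays. CRK7 was at 5.95 in Kas-1 wet 8, against 4.44 to 4.99, and at 3.94 in Tsu-1 dry 5, against 4.09 to 4.18. CRK14 was at 4.12 in Kas-1 wet 12, against 4.64 to 4.93. Kas-1 dry 2 and wet 8 are the arrays in which most CRK genes were the highest of their group, and Kas-1 wet 12 the one in which most were the lowest.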

How the results depend on the processing

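The count of CRK genes that differed between the accessions averaged over soils was 3 above the filter, 10 with no filter, 6 with array weights, and 3 to 6 with single arrays left out, the 6 without Tsu-1 wet 8. Over all 12308 tested loci, that comparison called 5875 in the main fit, 6850 with array weights and 6169 without Tsu-1 wet 8. In dry soil it was 3, and 8 with no filter. In wet soil it was 3, 9 with no filter, and 3 to 5 with single arrays left out, the 5 without Tsu-1 wet 8. On drying in Kas-1 the count was 0, and 1 (CRK18) with array weights and 1 without the 4 arrays of low weight. In the same order, 9, 1003 and 118 of all 12308 tested loci were called. With a replicate block the accession counts were 3 averaged over soils, 3 in dry and 3 in wet soil and the interaction count 0, and no call above the filter changed. In the fit of all loci, settings chosen after seeing the data gave 10 to 13 averaged over soils, 7 to 10 in dry and 8 to 12 in wet soil. Over 1491 refits of 45 single gene results, 1 lost its call (CRK7 in wet soil without Kas-1 wet 8) and 2 changed sign, none of those 2 called: in Tsu-1 the drying change of CRK3 was -0.067 with array weights, against 0.20, and that of CRK18 was 0.029 without the 4 arrays of low weight, against -0.21. The causes were not tested. Most of the 45 results were chosen because they were called with a difference of at least 0.5, and some genes entered from both fits. In the accession comparisons CRK10, CRK19 and CRK41, whose calls changed with the setting, were not among them. The count of lost calls therefore does not measure how stable the calls of all members were.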
